A study of Mus musculus with 4 samples.

Results

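The sodium-potassium ATPase genes described here are the 3 beta subunit genes Atp1b1, Atp1b2 and Atp1b3 and the 2 FXYD genes Fxyd1 and Fxyd5. They were taken by gene symbol from the deposited expression workbook, where each symbol stood once, and made up 5 of its 20193 genes. They had been proposed with the results of the comparison below already known, so their own values are given as a description and without a p-value.

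The sodium-potassium ATPase is the pump of the plasma membrane that carries sodium out of the cell and potassium in at the cost of ATP. Its alpha subunit binds ATP and the ions, its beta subunit is needed for folding and delivery of the pump to the surface, and a small FXYD protein can bind the pair and tune its affinity for ions. In muscle the pump restores the ion gradients that each action potential runs down.

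C2C12 is an immortal mouse myoblast line, and all 4 cultures were grown in medium with 20% serum, which keeps the cells undifferentiated. In the 2 empty vector cultures the cells carried the plasmid pcDNA3.1/Zeo(+) alone, and in the 2 others they carried Myolinc, a long noncoding RNA, in that plasmid. All cells were transfected by lipofection and selected with Zeocin. The Myolinc cells are labelled as a polyclonal line, and for the empty vector cells the labels do not say whether they were a clone or a pool. The arrays are labelled biological replicates, with nothing on whether they came from separate transfections, so a p-value here reflects the variation among these arrays alone, and that variation may be technical.

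Total RNA was measured on 4 Affymetrix arrays, and every level below is a log2 expression value on which the authors had run RMA, a background correction and normalization across arrays. Array medians ran from 7.24 to 7.35 across 28944 probe sets, and the small number of arrays limits the precision of all values. Skeletal myoblast markers (Myod1, Myf5, Des, Cdh15, Vcam1 and Ncam1) reached the median over probe sets, 7.27, for 6 of 6 genes, with a mean level of 10.79 and 10.80 on the empty vector arrays and 11.07 and 11.09 on the Myolinc arrays. Of these Myf5, Des and Cdh15 rose in the Myolinc line and 0 fell, also at an unadjusted p under 0.05. That median was reached by 0 of 11 neuronal and glial markers, whose mean level was 6.41 and 6.49 on the empty vector arrays and 6.45 and 6.49 on the Myolinc arrays. It was reached by 2 of 9 epithelial markers, of which 0 passed (2 at an unadjusted p under 0.05), and by 2 of 6 macrophage markers, of which Cd14 rose and Cd68 fell. The level of Myolinc itself was not analysed here.

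Of the 5 genes, Fxyd5 was lower in the Myolinc line and was the member past the threshold, an adjusted p under 0.05 in limma's moderated test over all genes. By that rule 9.26% of the 20193 genes were called, 4.61% higher and 4.65% lower. At an unadjusted p under 0.05 in limma, 2634 of these genes were higher and 2752 lower, with the values taken from the workbook. The other 4 members were not called, Atp1b1, Atp1b2 and Fxyd1 with higher means in the Myolinc line and Atp1b3 with a lower one. The 2 arrays of a group lay entirely above or below those of the other group for 5 of 5 members, but the same held for 53.9% of all genes, 27.9% with the Myolinc line above and 26.0% with it below. Nothing is read from these counts, because the members were chosen on this contrast.

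**Figure D1:**
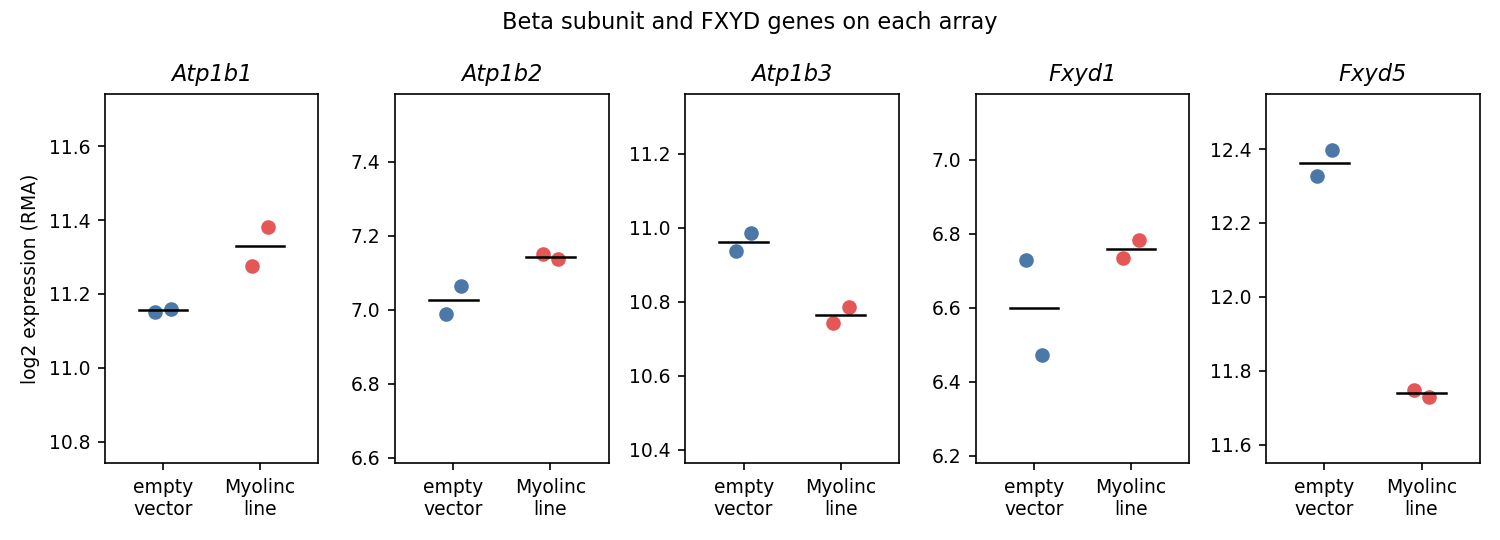
Log2 expression of the 5 genes on each array, in panels that all span 1 log2 unit. Points are arrays and black lines are group means. Fxyd5 falls from a mean of 12.36 to 11.74, and the other genes differ by less than 0.20 between the means.

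Upstream sequence is shown for the member with the largest difference, Fxyd5, and for Atp1b1 and Atp1b3, the beta subunit genes with levels above the median over probe sets. The RefSeq table of promoters (GRCm38.p6) held an entry for 4 of the 5 members. Each line ends at the base before the annotated start of transcription and reads 5′ to 3′ along the gene, which lies on the minus strand in all 3 cases. Capitals mark matches, on either strand, to a GC box (GGGCGG) or a CCAAT box (CCAAT).

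Fxyd5, chr7:31042332-31042514, minus strand: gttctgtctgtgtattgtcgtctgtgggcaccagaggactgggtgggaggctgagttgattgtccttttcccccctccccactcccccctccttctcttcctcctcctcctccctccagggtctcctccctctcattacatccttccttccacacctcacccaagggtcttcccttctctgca
Atp1b1, chr1:164458356-164458605, minus strand: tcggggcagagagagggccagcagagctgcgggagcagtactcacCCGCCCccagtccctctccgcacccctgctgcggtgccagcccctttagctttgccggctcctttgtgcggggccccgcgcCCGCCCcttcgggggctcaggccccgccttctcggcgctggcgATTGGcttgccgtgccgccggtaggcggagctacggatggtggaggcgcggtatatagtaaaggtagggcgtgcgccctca
Atp1b3, chr9:96364432-96364681, minus strand: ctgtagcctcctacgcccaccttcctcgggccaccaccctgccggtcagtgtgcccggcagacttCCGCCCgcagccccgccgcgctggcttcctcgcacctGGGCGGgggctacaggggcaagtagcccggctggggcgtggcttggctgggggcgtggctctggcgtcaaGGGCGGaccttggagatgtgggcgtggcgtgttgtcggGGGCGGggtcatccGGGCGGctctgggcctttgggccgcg

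The Fxyd5 stretch is 183 bases long because the gene Fxyd7 is annotated directly beyond it, and the other stretches hold 250 bases. GC content was 57.9% for Fxyd5, 70.4% for Atp1b1 and 73.6% for Atp1b3. Atp1b1 held 2 GC boxes and 1 CCAAT box, Atp1b3 held 5 GC boxes and 0 CCAAT boxes, and Fxyd5 held 0 of either. Over the 250 bases before the start, 32.7% of 32851 promoters held a GC box and 33.8% a CCAAT box, and over the last 183 bases 30.4% and 27.7% did. A TATA box (TATAAA), an E-box of the kind MyoD prefers (CAGCTG) and an AP-1 site (TGACTCA) were also searched on both strands. They had 0 matches in the 3 stretches, against 12.4%, 13.0% and 4.46% of all promoters over 250 bases, and 9.04%, 10.1% and 3.38% over 183. The motifs searched do not overlap one another in these stretches, and a match describes letters, not binding.

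Fxyd5 encodes dysadherin, a FXYD protein with a long extracellular part that is known to modulate the pump and to weaken adhesion between cells when it is abundant. Its level was 12.33 and 12.40 on the empty vector arrays and 11.75 and 11.73 on the Myolinc arrays. Both Myolinc arrays were lower than both empty vector arrays, by at least 0.58. The group means were 12.36 ± 0.05 and 11.74 ± 0.01 (SD, n = 2 per group), a log2 difference of -0.62 (SE 0.06) or 1.54-fold lower in the Myolinc line. Its size exceeded that of 96.4% of the genes. In a bulk measurement, fewer cells that express a gene and less of its RNA per cell cannot be told apart. The call was lost without empty vector replicate 1 (log2 difference -0.66) and without empty vector replicate 2 (-0.59), when the lone remaining control array is assumed to vary like the Myolinc arrays. It was also lost with an ordinary linear model, at the same difference. Every other called gene lost its call in these settings too, so these losses are not particular to Fxyd5. Fxyd5 also failed where other genes still passed. With a replicate block, which pairs arrays of the same number, 210 genes passed as higher and 152 as lower, but not Fxyd5. The labels do not say that these numbers mark a shared batch. At the stricter threshold of 0.01, 79 passed as higher and 48 as lower, again without Fxyd5.

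Fxyd1 encodes phospholemman, which binds the pump in heart and skeletal muscle and inhibits it until it is phosphorylated. It read 6.73 and 6.47 on the empty vector arrays and 6.74 and 6.78 on the Myolinc arrays. The groups were apart by only 0.0069, and the empty vector arrays differed from each other by more than the groups did on average. The means were 6.60 ± 0.18 and 6.76 ± 0.03 (SD, n = 2), a log2 difference of 0.16 (SE 0.11), all below the median level over probe sets. Without empty vector replicate 1 the difference was 0.29 and without replicate 2 it was 0.03, so a single control array decides its size. After quantile normalization it was 0.10.

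Atp1b1 encodes the beta 1 subunit, the most widely expressed partner of the alpha subunits. It stood at 11.15 and 11.16 on the empty vector arrays and at 11.28 and 11.38 on the Myolinc arrays. Both Myolinc arrays were above both controls, with more spread between them than between the controls. The means were 11.16 ± 0.01 and 11.33 ± 0.07 (SD, n = 2), a log2 difference of 0.17 (SE 0.07).

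Atp1b2 encodes the beta 2 subunit, first described as an adhesion molecule on glia. It read 6.99 and 7.06 on the empty vector arrays and 7.15 and 7.14 on the Myolinc arrays, below the median level over probe sets on all 4 arrays. The groups were apart by 0.07, with a log2 difference of 0.12 (SE 0.06). It was 0.23 with a chromosome 11 median (-0.11) removed, which was taken over genes at or above the median level and so without Atp1b2. The difference was 0.08 after array centring or quantile normalization, and 0.08 without empty vector replicate 1. The defining glial markers Gfap and Olig2 were also below the median level on every array, and of the 11 neuronal and glial markers 0 passed in limma, with 0 at an unadjusted p under 0.05.

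Atp1b3 encodes the beta 3 subunit, which is found in many tissues. Its probe set read 10.94 and 10.99 on the empty vector arrays and 10.74 and 10.79 on the Myolinc arrays. Both Myolinc arrays were lower, and the means of 10.96 ± 0.03 and 10.76 ± 0.03 (SD, n = 2) gave a log2 difference of -0.20 (SE 0.06).

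The identity of this Atp1b3 probe set is uncertain. Probe set numbers run along the chromosomes, and those of the other 4 members lie between named genes of their own chromosome. The number listed for Atp1b3, a gene of chromosome 9, lies between Ssxa1 and Gm5124 of chromosome X. Of 19429 genes placed on a chromosome, 286 (1.47%) had both named neighbours by number on another chromosome. Whether the probes read the chromosome 9 gene, a copy elsewhere or both was not tested. Numbered between Pls1 and Rnf7, genes taken to flank Atp1b3 on chromosome 9 by number, were 3 probe sets without a gene name. They were looked up after the values were seen. By position Rnf7 is the nearest measured gene on its side. On the other side the 4 nearest are Tfdp2, Gk5, Xrn1 and Atr, without Pls1. The 3 probe sets therefore need not lie at Atp1b3. The one with the highest level on all arrays read 11.82 and 11.83 in empty vector cells and 11.56 and 11.66 in the Myolinc line, a log2 difference of -0.22 (SE 0.07, adjusted p = 0.146 in limma over probe sets). It is given by its place only, as the files do not pair it with a gene. Of the 2 others, one with a level of up to 10.39 varied more within each group than between them, at 0.05 (SE 0.18), and one with levels between 5.42 and 5.59 had -0.13 (SE 0.06).

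Other genes of the pump came from a list made with earlier results of these data known. Of the 7 described here 6 were measured, and Fxyd3 was not analysed here. In limma 0 rose and 0 fell, with 0 at an unadjusted p under 0.05, beside backgrounds of 4.61% higher and 4.65% lower. The median log2 difference of the 6 was 0.02, as it was over all genes (0.02). They had log2 differences between -0.08 and 0.06, with adjusted p from 0.587 to 0.953, and 4 of them had a mean level below the median over probe sets. Atp1a4, the alpha gene of testis, had 0.03 (SE 0.07). Atp1b4, whose product in placental mammals is known as a protein of the inner nuclear membrane of muscle and no longer as a pump subunit, had 0.06 (SE 0.06). The regulators of kidney, Fxyd2 and Fxyd4, had -0.07 (SE 0.08) and 0.01 (SE 0.08), and those of brain, Fxyd6 and Fxyd7, had 0.02 (SE 0.11) and -0.08 (SE 0.08). The signs for Atp1a4, Fxyd4 and Fxyd6 turned under a change of scaling.

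**Figure D2:**
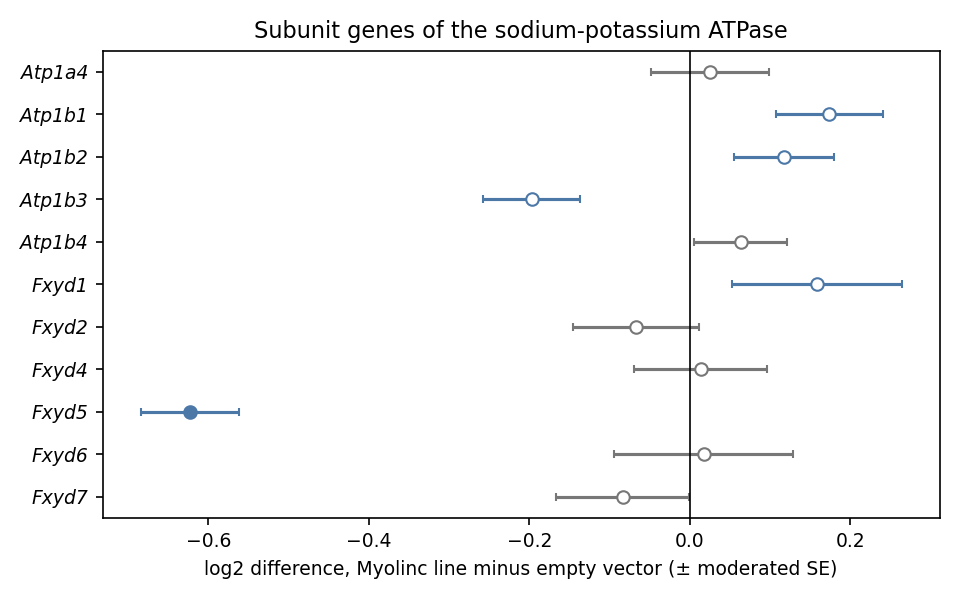
Log2 difference (Myolinc line minus empty vector) of the 5 genes described first (blue) and the 6 other pump and FXYD genes (grey), with bars of 1 moderated SE. A filled point passed the threshold, which holds for Fxyd5 (-0.62), and the 6 others lie between -0.08 and 0.06.

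Fxyd5 and Fxyd1 are near neighbours on chromosome 7 of GRCm38.p6. Fxyd5 spans 31032723 to 31042331, Fxyd7 31042515 to 31051454, Fxyd1 31051678 to 31055873 and Fxyd3 31070535 to 31076697. The gaps are 183 bases between Fxyd5 and Fxyd7 and 223 bases between Fxyd7 and Fxyd1, and the 4 genes lie within 44.0 kb. Measured genes near Fxyd5 and Fxyd1, up to 4 on each side, were set beside them. Of these 8 genes other than the members, 0 passed in limma, beside 9.26% of all genes. Their log2 differences ran from -0.21 to 0.20. The lowest adjusted p was 0.114, that of Lgi4, the 1 gene at an unadjusted p under 0.05. Fam187b, Hamp, Hpn, Lgi4 and Lsr had a mean level below the median over probe sets, as Fxyd1 had. Fxyd7, which lies between Fxyd5 and Fxyd1, had a log2 difference of -0.08. On the far side of Fxyd1, Lgi4, which encodes a secreted protein of Schwann cells, had 0.20, Hpn (the protease hepsin) 0.04 and Gramd1a 0.11. On the far side of Fxyd5, Fam187b had 0.09, Lsr 0.16, the transcription factor gene Usf2 0.12 and Hamp, which encodes the iron hormone hepcidin, -0.21. The Hamp value was -0.37 without Myolinc replicate 1 and -0.06 without Myolinc replicate 2, and that of Lsr was 0.32 without empty vector replicate 1 and -0.0042 without empty vector replicate 2. Over the genes of chromosome 7 at or above the median level, and so without Fxyd1, the median log2 difference was 0.01 (0.00796).

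**Figure D3:**
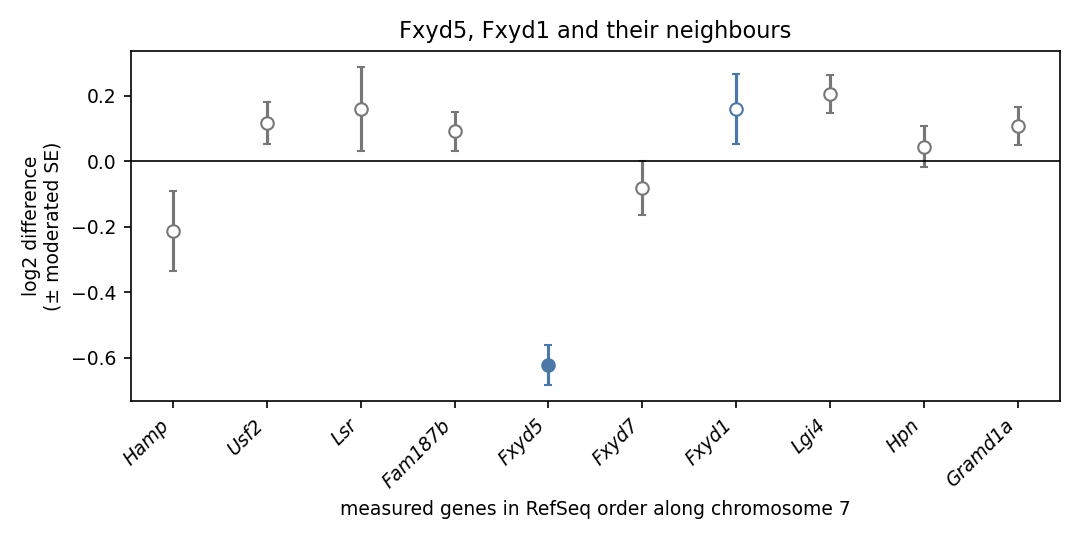
Log2 difference (Myolinc line minus empty vector, bars of 1 moderated SE) of Fxyd5, Fxyd1 and measured genes around them, in the order along chromosome 7. Fxyd5 (blue, filled) stands at -0.62, and the others lie between -0.21 and 0.20. Fxyd1, Fam187b, Hamp, Hpn, Lgi4 and Lsr had a mean level below the median over probe sets.

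Neighbours of the beta subunit genes were set beside the 9.26% of all genes called, and nothing is read from counts among 8 genes. Atp1b1 spans 164437099 to 164458355 on chromosome 1, and of the 8 measured genes nearest to it Slc19a2, a thiamine transporter, fell by 0.54 (SE 0.06, limma adjusted p = 0.0244) and Sft2d2, a vesicle transport protein, rose by 0.75 (SE 0.07, adjusted p = 0.0164). Atp1b2 spans 69599728 to 69605978 on chromosome 11, and of its 8 neighbours Mpdu1, which acts in protein glycosylation, fell by 0.48 (SE 0.06, adjusted p = 0.0261). Atp1b3 spans 96332655 to 96364431 on chromosome 9, and 0 of its 8 neighbours passed in limma. An unadjusted p under 0.05 was reached by 3 neighbours of Atp1b1, 4 of Atp1b2 and 3 of Atp1b3. The calls of Slc19a2, Sft2d2 and Mpdu1 were lost without either empty vector array, that of Slc19a2 also without Myolinc replicate 1 (adjusted p = 0.0650) and that of Mpdu1 without Myolinc replicate 1 (0.0636) or 2 (0.0577), with adjusted p over all settings from 0.000116 to 0.212. All 3 calls were also lost with an ordinary linear model (adjusted p = 0.102, 0.0975 and 0.0929), in which 0 of all genes passed.

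Genes with a pattern like that of Fxyd5 were sought by the root mean square distance over the 4 arrays, after each array's median and each gene's mean were subtracted. Of 9617 named genes with a mean no lower than 7.27, the nearest were Papd5, a noncanonical poly(A) polymerase (distance 0.0010 on the log2 scale), Dpp7, a dipeptidyl peptidase (0.0028), and Elmod2, which acts on Arl GTPases (0.0063). Their log2 differences were -0.62, -0.62 and -0.63, against -0.62 for Fxyd5. With 4 arrays many genes come close by number alone, and nothing follows from the likeness.

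Genes of related pumps, of ion transport and of their regulation were described from 3 further lists. Of 19 genes listed for other P-type ATPases, a beta subunit gene among them, 1 rose, 0 fell and 18 did not pass. At an unadjusted p under 0.05 in limma 5 were higher and 2 lower, beside 2634 and 2752 of the 20193 genes with the workbook's values. Atp2b4, a calcium pump of the plasma membrane, rose from 9.16 ± 0.10 to 10.33 ± 0.05 (SD, n = 2), a log2 difference of 1.18 (SE 0.08, limma adjusted p = 0.0107) or 2.26-fold. The median log2 difference of this list was 0.03.

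Of 33 sodium-coupled exchangers and cation-chloride cotransporters, which mostly draw on the sodium gradient, 2 rose, 3 fell and 28 did not pass. At an unadjusted p under 0.05 in limma 4 were higher and 7 lower. The endosomal sodium-proton exchanger gene Slc9a9 rose by 0.83 (SE 0.10, limma adjusted p = 0.0258), and Slc24a6, the mitochondrial sodium-calcium exchanger, rose by 0.50 (SE 0.06, adjusted p = 0.0268). Slc12a2, the sodium-potassium-chloride cotransporter NKCC1, fell by 0.66 (SE 0.06, adjusted p = 0.0163). The sodium and myo-inositol cotransporter gene Slc5a3 fell by 0.67 (SE 0.09, adjusted p = 0.0282), and the sodium-proton exchanger gene Slc9a2 fell by 0.52 (SE 0.08, adjusted p = 0.0396). The median of this list was 0.03.

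Of 27 measured genes listed as partners and regulators of the pump or of related transporters, 1 rose, 1 fell and 25 did not pass. At an unadjusted p under 0.05 in limma 6 were higher and 4 lower. Ank3, which encodes the adaptor ankyrin-G that anchors membrane proteins to spectrin, rose from 7.53 ± 0.04 to 8.22 ± 0.03 (SD, n = 2), a log2 difference of 0.69 (SE 0.06, limma adjusted p = 0.0160). Sgk1, a kinase that raises sodium transport and pump activity in epithelia, fell from 10.42 ± 0.04 to 9.78 ± 0.03 (SD, n = 2), a log2 difference of -0.64 (SE 0.06, adjusted p = 0.0181). The median of this list was 0.05.

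Over the 4 lists 4 of 85 measured genes rose and 4 fell, beside 4.61% and 4.65% of all genes, with a median log2 difference of 0.03. Without empty vector replicate 1, and likewise without replicate 2, 0 rose and 0 fell in limma, with 10 and 11, and then 8 and 9, past an unadjusted p of 0.05. Without Myolinc replicate 1 the count that fell was 2, and without Myolinc replicate 2 it was 3. Slc24a6 (adjusted p = 0.0729 and 0.0534) and Slc9a2 (0.0993 and 0.0515) were lost without either Myolinc array, and Slc5a3 (0.0582) without Myolinc replicate 1. With an ordinary linear model, in which 0 of all genes passed, all 8 genes named from the last 3 lists lost their call (adjusted p from 0.0799 to 0.171). With the control range kept the calls of Slc5a3 (0.0515) and Slc9a2 (0.0670) were lost. Over all settings the adjusted p of the 8 genes named from the last 3 lists ran from 3.29e-05 to 0.236.

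**Figure D4:**
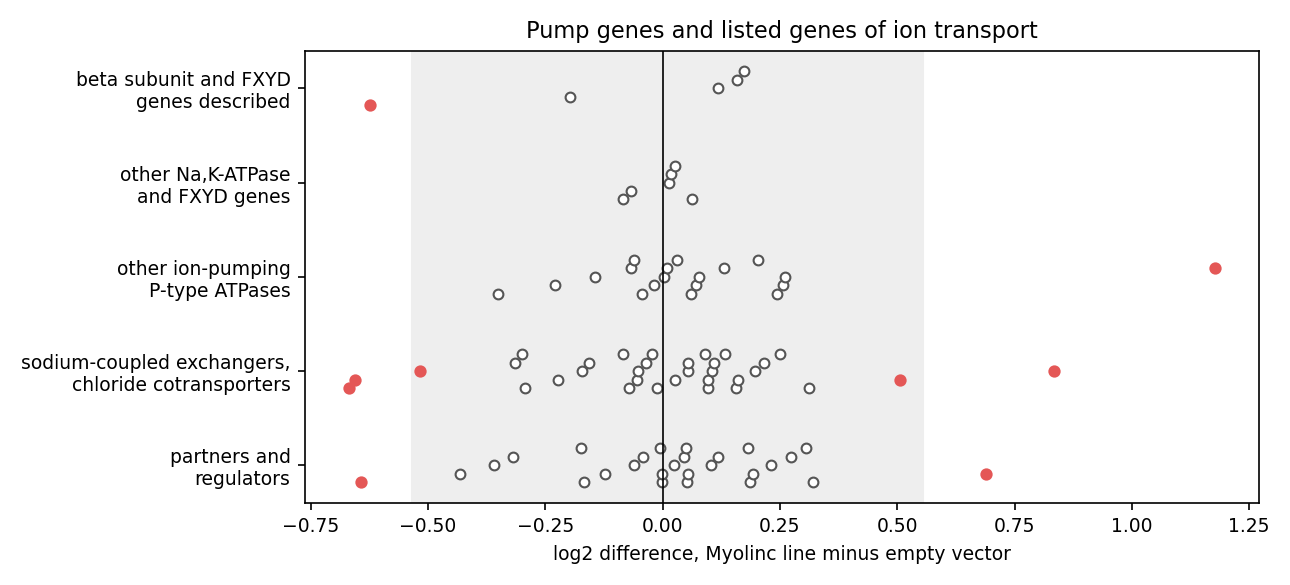
Log2 difference (Myolinc line minus empty vector) of each gene in the 5 groups, where each point is a gene, red points passed the threshold and vertical offsets only separate points. The grey band, from -0.53 to 0.55, holds the central 95% of all genes, and Atp2b4 (1.18) lies farthest from it.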

How the data were processed

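The authors deposited log2 expression values from RMA, per the submitters' processing notes, which also name limma. Versions, genome build and probe annotation were not given in the sources used here. A p-value per gene in the deposited workbook was not used. The workbook's array values equal those of the full table of 35556 rows, from which 6612 rows of the lowest probe set numbers, none with a symbol, were left out as the control range. The remaining 28944 probe sets were fitted with limma 3.58.1 in R 4.3.3 (lmFit and eBayes, defaults, 2 residual degrees of freedom), as the difference of the Myolinc line from empty vector, and two-sided p-values were adjusted by Benjamini-Hochberg over the 20193 genes with a symbol. Standard errors are moderated. An exact permutation test of 2 arrays against 2 cannot go below 0.333 and was not used. The fit was also run on data simulated with its own estimated spread, which checks the code and cannot show how well 2 arrays per group serve. Symbols were placed with the RefSeq table of GRCm38.p6, where 19429 matched. Figures used matplotlib 3.10.9.

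The members and lists were chosen with earlier results of these data known. Some listed and neighbouring genes are not reported here, and the counts of lists and neighbours leave them out. Named genes are the members, the other subunit genes, up to 3 genes per list and direction past the threshold, neighbours of members and the genes most like a called member. Other settings tried were a replicate block, a trended and robust prior, a filter on level, a further quantile normalization, array centring, other sets of rows, an ordinary linear model, removal of chromosome medians, other thresholds and leaving out each array.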

Additional observations from a re-analysis of the deposited data

How the results depend on the processing

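The limits lie mainly in 2 arrays per group. The replicate numbers of the titles are not said to mark a shared batch. Same-numbered arrays deviated together with a correlation of 0.22 over all probe sets and 0.30 over those at or above the median level. With the replicate block 210 genes rose and 152 fell, 0 members passed (2 at an unadjusted p under 0.05), and of the listed genes 2 rose and 0 fell (16 higher and 13 lower at an unadjusted p under 0.05). Fxyd5 kept its difference of -0.62 there and did not pass. Nor did Ank3, Sgk1, Slc12a2, Slc5a3, Slc9a2, Slc24a6, Slc19a2, Sft2d2 or Mpdu1 (limma adjusted p 0.0501 to 0.0622). Atp2b4 and Slc9a9 did pass with the block. In limma without each array in turn, 0 to 656 genes rose, 0 to 570 fell, 0 to 1 members passed, and 0 to 3 listed genes rose and 0 to 3 fell. Fxyd5 ranged from -0.66 to -0.59. The count was 0 without either empty vector array, with 1792 higher and 1847 lower, and 1716 and 1606, at an unadjusted p under 0.05. With an ordinary linear model 0 genes passed (2236 and 2341 unadjusted), among them 0 members (2 unadjusted) and 0 listed genes (10 and 11 unadjusted), and Fxyd5 did not pass at -0.62. With a trended and robust prior 1985 genes rose and 2357 fell, and 3 members passed, Atp1b1 (0.17) and Atp1b3 (-0.20) besides Fxyd5, with 9 and 12 listed genes. With probe sets below the median level left out 1966 rose and 2380 fell, 2 members passed, Atp1b3 (-0.20) and Fxyd5, and 13 and 11 listed genes, while Atp1b2 and Fxyd1 gave no value. With the control range kept 472 rose and 415 fell, and 2 listed genes fell. With the rows of the workbook alone 8 listed genes fell. At a threshold of 0.01, 79 genes rose, 48 fell, and 0 members and 0 listed genes passed in limma; at 0.1, 1619 rose and 1778 fell, with 7 and 9 listed genes. The signs of all 5 members were kept in every setting that gave a value. Signs that turned belonged to genes that did not pass. Atp1a4 was -0.028 after quantile normalization, -0.016 after centring and -0.018 without chromosome medians, and Fxyd4 was -0.032 and -0.028 in the first pair. Fxyd6 was -0.024 after centring and -0.016 without chromosome medians, and Hpn -0.0062 after quantile normalization. Without single arrays Atp1a4 ranged from -0.028 to 0.079, Fxyd4 from -0.066 to 0.093, Fxyd6 from -0.12 to 0.16 and Lsr from -0.0042 to 0.32. The cause of these changes was not tested.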
